A study of Mus musculus with 10 samples.

Results

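Interferon-induced genes and the genes of the RNA and DNA sensors that trigger them were examined in mouse platelets of 2 ages. The set held 45 genes, chosen by symbol from an annotated list of 53819 symbols. Its 7 classes were the IFITM proteins (3 genes), the IFIT and ISG15 system (5), the OAS family (5), interferon-induced GTPases (8), transcription factors of the pathway (4), nucleic acid sensors with their adaptors (8), and other induced effectors (12).

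Interferons are secreted proteins that cells release when internal sensors such as RIG-I, MDA5 or cGAS meet viral or misplaced nucleic acid. Their receptors signal through JAK kinases to transcription factors, STAT2 and IRF9 among them, which bind the interferon-stimulated response element (ISRE) of target promoters, while interferon gamma acts through the gamma-activated sequence (GAS). Platelets have no nucleus, so the RNA of these genes in a platelet comes from its parent megakaryocyte, a bone marrow cell that can itself respond to interferon, or is taken up from other cells.

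The study profiled polyadenylated RNA of platelets from mice labelled P7, taken here as postnatal day 7, and from mice labelled adult, with 5 libraries per age. The P7 replicates are lettered A, B, C, E and I, those of adult mice A, B, C, G and H, and in every list of 5 values below the libraries stand in that order. No treatment, genotype, strain, sex or exact adult age is stated, and nothing says whether libraries are separate animals or pools. The p-values therefore weigh differences against a spread among these samples that may be technical. In these bulk samples, fewer cells of a type and less RNA per cell cannot be told apart.

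Total counts were 19431863 to 25029931 at P7 and 19541997 to 23291269 in adults, and levels are given as CPM, counts divided by a library total that was scaled by TMM factors. In a single library, 3 counts, the limit that a count of 0 allows, correspond to 0.120 to 0.154 CPM before that scaling. The tissue label was checked against 15 platelet genes, which all passed the filter on low counts. Together they held 82992 ± 8560 CPM in P7 libraries and 86837 ± 10559 CPM in adult libraries (SD, n = 5 each). Of these 15 genes, 5 were called higher at P7 and 3 lower, where 27.7% of all tested genes were called. Markers of leukocytes in general, 7 of 8 passing and 2 of them called higher at P7, summed to 1340 to 2115 CPM in P7 libraries and 1589 to 2495 CPM in the adult ones, and the gene that did not pass was Ptprc, which encodes the leukocyte surface protein CD45. Summed neutrophil markers stood at 4.06 to 8.63 CPM in P7 libraries and 1.62 to 2.05 CPM in the adult ones, with Ly6g and Cxcr2 at 0 counts throughout, and 2 of 18 neutrophil genes passed the filter. B cell markers, 4 of 11 passing, summed to 9.74 to 29.5 CPM in P7 libraries and 6.20 to 7.99 CPM in the adult ones. Markers of T and NK cells, 5 of 13 passing, stood the other way. Their sum was 8.21 to 11.8 CPM in P7 libraries and 12.2 to 21.3 CPM in the adult ones. The sum of dendritic cell markers, 6 of 10 passing, was also lower at P7, at 40.0 to 56.5 CPM and 61.6 to 99.8 CPM. The passing dendritic genes were called in both directions, 1 higher at P7 and 2 lower. That list includes Bst2, itself a gene of the set, and Clec9a, which shares exon bases with the platelet gene Clec1b on the same strand. Erythroid markers overlapped, at 1906 to 3487 CPM and 1222 to 2715 CPM, as did those of monocytes and macrophages, at 2660 to 5639 CPM and 4170 to 9737 CPM. The part of these cell types in the results on interferon genes was not tested.

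The set did not move as a block between the ages. Of its 45 genes, 27 passed the filter on low counts, and a gene is called here at an adjusted p under 0.05 in the quasi-likelihood test of edgeR with Benjamini-Hochberg adjustment over all genes tested. By this rule 7 interferon genes were higher at P7, against 13.8% of the 8198 genes tested, and 4 were lower, against 13.9%. The higher genes were Ifitm1, Ifitm2, Ifitm3, Isg15, Gbp7, Mavs and Rsad2, and the lower genes were Oasl2, Ifi47, Ifi27 and Samd9l. Together 11 of 27 were called, 40.7%, where 27.7% of all tested genes were called. The libraries of the ages did not overlap for 9 of the 27, and this held for 19.8% of all tested genes. The median log2 fold change (P7 over adult) was -0.06 over the 27 and 0.05 over all genes, with 13 positive and 14 negative. Without P7 B, and likewise without adult G, 4 genes were called higher. Without P7 B, and likewise without P7 E, 2 genes were called lower. Of all tested genes, 23.6% were called without P7 B, 26.0% without adult G and 22.2% without P7 E. The spread between libraries was ordinary for these data, with a median biological coefficient of variation of 0.36 for the 27 genes and 0.35 for all genes.

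**Figure D1:**
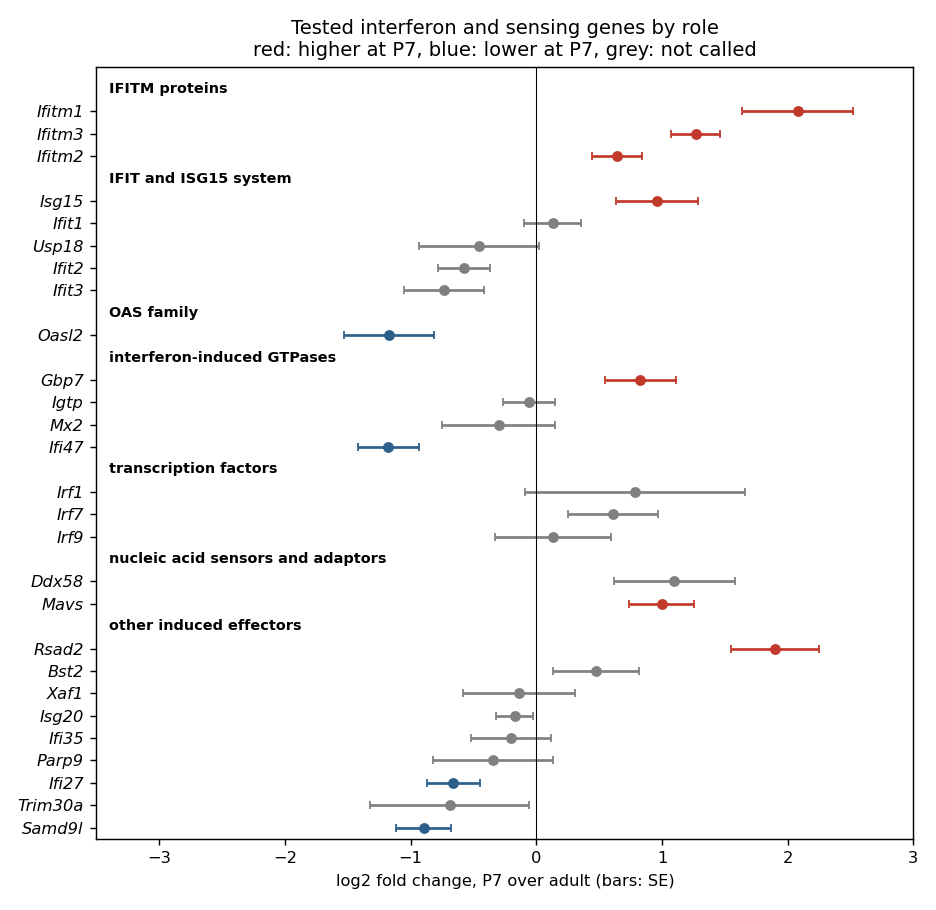
Log2 fold change of P7 over adult for the 27 interferon and sensor genes that passed the filter, one point per gene with its standard error, arranged by class. The 3 IFITM genes lie above 0, Oasl2 and Ifi47 lie near -1.2, and red, blue and grey mark genes higher at P7, lower at P7 and not called.

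Promoter sequence was set beside the calls, because interferons act on target promoters through elements such as ISRE and GAS. RefSeq promoters (GRCm38.p6, 250 bases before to 50 after the start of the transcript) were matched by symbol for 33 of the 45 genes. ISRE letters were taken as GAAA followed, after any 2 bases, by GAAA, on either strand. They occurred in 19 of these 33 promoters, and in 3.99% of the 27025 symbols and 3.44% of the 32851 promoters in the table. The GAS letters TTCNNNGAA, which read the same on both strands and may overlap ISRE letters, occurred in 10 of the 33 and in 9.55% of all symbols. Since the genes were chosen as interferon targets, these shares describe the set and are no result of the experiment. Among the genes called higher, ISRE letters were present in 5 of 7 (Ifitm2, Ifitm3, Isg15, Gbp7 and Rsad2), with Ifitm1 and Mavs lacking them in this window. Among the genes called lower, they were present in 0 of the 3 that could be matched (Oasl2, Ifi47 and Samd9l). Among the tested genes that were not called, they were present in 6 of the 13 matched, with Ifit2, Irf7 and Xaf1 among those lacking them. The 11 tested genes with ISRE letters had a median log2 fold change of 0.64 and 8 positive values, and the 12 without had a median of -0.16 and 5 positive values. The ranges overlapped widely, from -0.73 to 1.90 with ISRE letters and from -1.18 to 2.08 without, where Ifitm1 was the highest. These counts and values were not tested, and a match of letters is not a bound site.

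Sequence is printed for a selection that leaves out the uncalled genes and the higher genes without ISRE letters, Ifitm1 and Mavs. The following stretches of 150 bases come from 4 genes higher at P7 with ISRE letters and from 2 lower genes without them. Each reads 5′ to 3′ on the gene's own strand and ends at the last base before the start site, except that of Ifitm3, which runs 29 bases past it to include its matches. Capitals mark the ISRE letters, in either orientation. The positions are chr4:156200819-156200968 (minus strand) for Isg15, chr7:141010716-141010865 (minus) for Ifitm3, chr7:140955962-140956111 (minus) for Ifitm2, chr12:26456453-26456602 (minus) for Rsad2, chr11:49076437-49076586 (plus) for Ifi47 and chr6:3399572-3399721 (minus) for Samd9l, all on GRCm38.p6.
Isg15: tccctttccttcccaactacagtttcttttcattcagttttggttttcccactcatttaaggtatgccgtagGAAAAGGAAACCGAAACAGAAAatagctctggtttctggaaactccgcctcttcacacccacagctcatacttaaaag
Ifitm3: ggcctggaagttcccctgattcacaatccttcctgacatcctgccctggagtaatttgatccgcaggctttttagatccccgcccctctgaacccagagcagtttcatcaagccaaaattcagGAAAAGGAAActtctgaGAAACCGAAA
Ifitm2: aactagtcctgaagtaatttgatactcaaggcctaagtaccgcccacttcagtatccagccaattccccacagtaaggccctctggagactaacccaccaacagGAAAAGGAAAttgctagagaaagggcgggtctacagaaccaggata
Rsad2: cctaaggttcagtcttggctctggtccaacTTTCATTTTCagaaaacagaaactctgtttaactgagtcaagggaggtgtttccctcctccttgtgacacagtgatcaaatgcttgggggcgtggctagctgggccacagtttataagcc
Ifi47: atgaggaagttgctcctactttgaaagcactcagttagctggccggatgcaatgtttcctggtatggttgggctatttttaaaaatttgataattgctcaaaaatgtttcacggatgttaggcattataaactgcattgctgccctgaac
Samd9l: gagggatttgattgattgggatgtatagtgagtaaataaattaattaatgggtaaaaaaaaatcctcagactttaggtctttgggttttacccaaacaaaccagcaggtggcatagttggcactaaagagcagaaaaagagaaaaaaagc
Isg15 carries 3 overlapping matches whose first bases lie 78, 72 and 66 bases before the start site, Rsad2 carries 1 that begins 120 bases before it, and Ifitm2 carries 1 that begins 46 bases before it. Ifitm3 and Ifitm2, which are neighbouring genes of 1 cluster, share the same 10 letters in their first match, GAAAAGGAAA, and Isg15 has them as well.

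All 3 IFITM genes were higher at P7. IFITM proteins are small membrane proteins that hinder the fusion of enveloped viruses with cell membranes. Ifitm3, the most abundant of them per kilobase of exon, stood at 285, 382, 541, 316 and 435 CPM in the P7 libraries and at 182, 213, 120, 154 and 145 CPM in the adult ones. Every P7 library was above every adult library, and the means were 391.9 ± 102 CPM and 163 ± 35.8 CPM (SD, n = 5 each). Ifitm3 rose by 1.27 ± 0.20 on the log2 scale (SE, adjusted p = 0.000350 by edgeR's quasi-likelihood test), 2.41-fold, and kept its call in all 23 alternative settings of the analysis.

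Ifitm2 stood at 19.8, 34.0, 24.0, 19.5 and 22.5 CPM in the P7 libraries and at 16.4, 16.8, 16.1, 11.1 and 16.2 CPM in the adult ones. The groups did not overlap, with P7 B the highest library and adult G the lowest. The increase was 0.64 ± 0.20 on the log2 scale (SE, adjusted p = 0.0254 by edgeR's test). Without P7 B or without adult G it was 0.49 to 0.52 and lost its call (adjusted p = 0.0674 to 0.0832), as it did with the trend of fold change on GC content removed, at 0.44 (adjusted p = 0.122). The gene model Gm45717 overlaps 40.9% of the exon bases of Ifitm2 on the same strand, and the IFITM genes are close paralogs, so the split of reads among them is uncertain.

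Ifitm1 was close to the filter, at 1.17, 2.01, 2.81, 1.52 and 1.83 CPM in P7 libraries and 0.716, 0.645, 0.292, 0.343 and 0.172 CPM in the adult ones. All P7 libraries were above all adult libraries. Ifitm1 rose by 2.08 ± 0.44 on the log2 scale (SE, adjusted p = 0.00296 by the same test), the largest fold change among the 27 genes. The summed neutrophil markers, at 4.06 to 8.63 CPM and 1.62 to 2.05 CPM, were also higher at P7 without overlap. So were the summed B cell markers, at 9.74 to 29.5 CPM and 6.20 to 7.99 CPM. Among the P7 libraries, P7 C had the highest Ifitm1 and the lowest neutrophil sum. The part of these cells in the increase of Ifitm1 was not tested. Across the 10 libraries, with each age centred on its own mean, Ifitm1 and Ifitm3 moved together (Pearson r = 0.87). Ifitm2 followed them less, at r = 0.40 with Ifitm1 and 0.30 with Ifitm3. Of all pairs of tested genes in the set, only Ifit2 with Ifit3 had a higher r than Ifitm1 with Ifitm3. These values describe libraries that share their depth and scaling.

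The IFIT and ISG15 system was divided. Isg15 encodes a ubiquitin-like protein that is attached to other proteins after interferon exposure, and it stood at 1.65, 1.81, 2.73, 1.72 and 1.78 CPM in the P7 libraries and at 0.620, 0.988, 1.27, 0.900 and 1.20 CPM in the adult ones. The groups did not overlap, with P7 C above the other P7 libraries. Isg15 rose by 0.96 ± 0.32 on the log2 scale (SE, adjusted p = 0.0382 by edgeR's test). The call was lost without any 1 of P7 A, B, C and E and adult A, B and G, at log2 fold changes of 0.80 to 1.00 (adjusted p = 0.0547 to 0.116), and with the GC trend removed, at 0.79 (adjusted p = 0.0819). Usp18, which encodes the protease that removes ISG15, stood at 0.720 to 0.966 CPM in P7 libraries and 0.239 to 2.02 CPM in the adult ones and was not called (log2 fold change -0.46 ± 0.48, SE, adjusted p = 0.512 by the same test).

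Of the IFIT proteins, IFIT1 binds viral RNA that lacks the host's cap marks. Ifit2 was the most abundant of this class per kilobase of exon, at 182, 176, 135, 215 and 224 CPM in P7 libraries and 253, 184, 216, 404 and 330 CPM in the adult ones. Adults G, H and A were above every P7 library, and adults B and C lay within the P7 range. The log2 fold change was -0.57 ± 0.21 (SE) and just missed the threshold (adjusted p = 0.0536 by edgeR's quasi-likelihood test). It passed with RLE scaling at -0.59 (adjusted p = 0.0452), in DESeq2 at -0.59 (adjusted p = 0.0377) and with no filter on low counts at -0.59 (adjusted p = 0.0229). It also passed without P7 I, without adult B and without adult C, at -0.70 to -0.66 (adjusted p = 0.0222 to 0.0404).

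Ifit3 stood at 8.33, 8.47, 7.64, 11.8 and 14.6 CPM in the P7 libraries and at 16.5, 10.4, 8.14, 29.1 and 20.5 CPM in the adult ones. The groups overlapped through adults B and C and P7 E and I, and the log2 fold change of -0.73 ± 0.32 (SE) was not called (adjusted p = 0.0991 by edgeR's test), except without adult C, at -0.92 (adjusted p = 0.0334). Ifit2 and Ifit3 were high and low in the same libraries, both highest in adults G and H (r = 0.91 over 10 libraries, each age centred). This was the highest r of all pairs of tested genes in the set, and Ifit1 had an r of 0.05 with Ifit2 and 0.09 with Ifit3. Ifit1, the third of the family in the set, stood at 12.7 to 24.8 CPM in P7 libraries and 11.2 to 18.4 CPM in the adult ones, with a log2 ratio of P7 to adult of 0.13 ± 0.23 (SE, adjusted p = 0.707). It turned to -0.05 without P7 I, the library with 24.8 CPM.

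**Figure D2:**
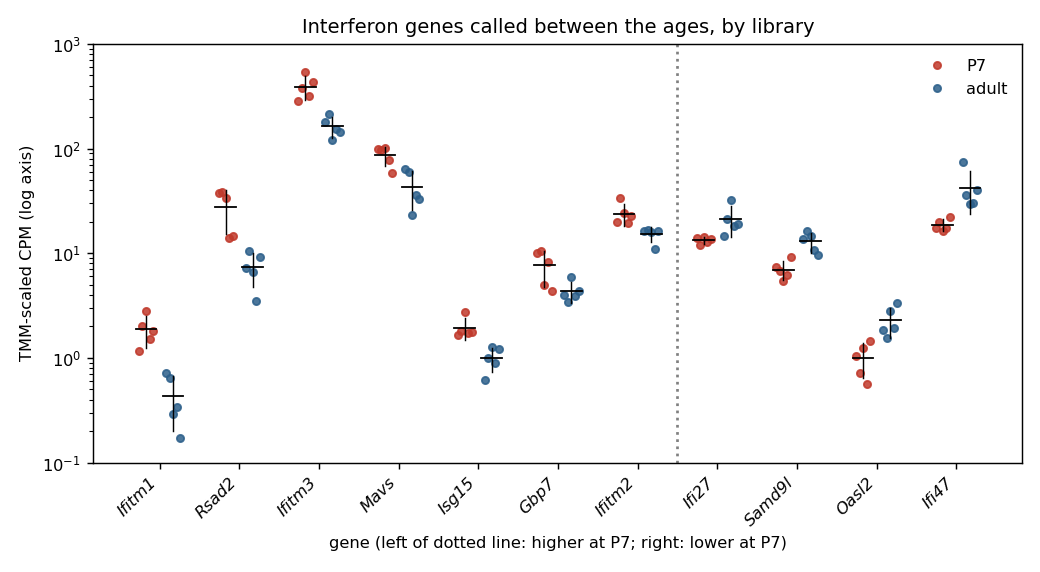
Level in each library, in CPM on a log axis, of the 11 interferon and sensor genes called between the ages, with P7 libraries in red and adult libraries in blue, a bar at each mean and a line of 1 SD either way. The P7 points lie above the adult points without overlap for Ifitm1, Ifitm2, Ifitm3, Isg15 and Rsad2 and below them for Oasl2, Ifi47, Ifi27 and Samd9l, and the ages overlap for Gbp7 and Mavs.

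The OAS family consists of enzymes that make 2′-5′ linked oligoadenylate, which activates RNase L, together with OAS-like proteins. Of its 5 genes only Oasl2 passed the filter. Oasl2 stood at 1.05, 0.723, 1.25, 0.560 and 1.46 CPM in the P7 libraries and at 1.86, 1.55, 2.78, 1.93 and 3.33 CPM in the adult ones. The groups did not overlap, although P7 I and adult B nearly met. Oasl2 fell by 1.17 ± 0.36 on the log2 scale (SE, adjusted p = 0.0236 by edgeR's quasi-likelihood test), and the call was lost without any 1 of P7 B, P7 E, adult C and adult H, at -1.10 to -1.01 (adjusted p = 0.0524 to 0.0607). The other OAS genes were near or at 0, with totals over the 10 libraries of 56 counts for Oas1a, 32 for Oas3, 3 for Oasl1 and 0 for Oas2.

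Interferon-induced GTPases of the immunity-related and guanylate-binding families attack the membranes of vacuoles that hold intracellular microbes. The 2 called genes of the GTPase class went in opposite directions. Ifi47, of the immunity-related GTPase family, stood at 17.4, 19.8, 16.2, 17.4 and 22.4 CPM in the P7 libraries and at 74.3, 36.4, 29.4, 30.5 and 40.1 CPM in the adult ones. All adult libraries were above all P7 libraries, and adult A lay far above the other adults. Ifi47 fell by 1.18 ± 0.24 on the log2 scale (SE, adjusted p = 0.00252 by edgeR's test), and its call held in all 23 settings, the one without adult A included. Its exons overlap those of 2 other annotated genes, and the largest overlap with a single gene covers 4.49% of their bases.

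Gbp7, of the guanylate-binding proteins, stood at 10.02, 10.6, 4.98, 8.32 and 4.38 CPM in the P7 libraries and at 3.96, 3.40, 5.95, 3.90 and 4.36 CPM in the adult ones. P7 A, B and E were above all adults, and P7 C and I fell within the adult range. The increase of 0.83 ± 0.28 on the log2 scale (SE, adjusted p = 0.0398 by the same test) ended as a call on removal of any 1 of P7 A, B and E and adult A, B, G and H, at 0.68 to 0.82 (adjusted p = 0.0635 to 0.111). In limma-voom it was 0.76 and was not called (adjusted p = 0.0629).

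Igtp, another immunity-related GTPase, followed Ifitm3 in level per kilobase of exon, at 389, 355, 480, 348 and 423 CPM in P7 libraries and 423, 392.1, 227, 621 and 418 CPM in the adult ones. Adults C and G were the lowest and the highest of all 10 libraries, and the log2 fold change was -0.06 ± 0.21 (SE, adjusted p = 0.858 by edgeR's test). Part of its exons, 8.01% of their bases, overlaps the gene Irgm2 on the same strand. The log2 fold change of Igtp was 0.0018 with scaling by library size only and 0.10 without adult G, so no direction can be given. Mx2, which encodes a dynamin-like antiviral GTPase, averaged 1.10 ± 0.654 CPM in P7 libraries and 1.35 ± 0.607 CPM in adult libraries (SD, n = 5 each) and was not called by edgeR's test (log2 fold change -0.30 ± 0.45, SE, adjusted p = 0.657). Mx1, Gbp2, Gbp3 and Irgm1 were under the filter, with 12, 113, 60 and 98 counts over all libraries.

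No transcription factor of the set was called, 0 of the 3 tested in edgeR's quasi-likelihood test, and all lay near or below 2 CPM. Irf7, the amplifier of type I interferon production, stood at 0.765, 1.86, 1.73, 1.28 and 1.41 CPM in the P7 libraries and at 0.668, 0.817, 0.926, 1.11 and 1.09 CPM in the adult ones. P7 B, C, E and I were above every adult, P7 A was not, and the log2 fold change of 0.61 ± 0.36 (SE) did not pass (adjusted p = 0.2301). Irf9, the DNA-binding partner of STAT2, had a log2 fold change of 0.13 ± 0.46 and Irf1, an early factor of the interferon gamma response, one of 0.79 ± 0.88 (SE, adjusted p = 0.863 and 0.545). Stat2 was under the filter with 83 counts, 50 at P7 and 33 in adults.

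Among nucleic acid sensors and adaptors, 2 of 8 passed the filter, Mavs and Ddx58, and Mavs was the more abundant per kilobase of exon. Mavs encodes the mitochondrial adaptor to which RIG-I and MDA5 pass their signal. Mavs stood at 98.3, 97.2, 101, 77.2 and 58.7 CPM in the P7 libraries and at 63.9, 59.9, 23.4, 36.2 and 33.3 CPM in the adult ones. P7 I lay below adults A and B, and the other P7 libraries were above every adult. Mavs rose by 1.00 ± 0.26 on the log2 scale (SE, adjusted p = 0.0104 by edgeR's test). It was called with each library left out in turn, but not at a threshold of 0.01 or in the 6 libraries lettered A to C alone, at 0.97 (adjusted p = 0.0592).

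The sensor upstream of it was scarce. Ddx58, which encodes RIG-I, a sensor of RNA with 5′ triphosphate ends, stood at 3.86, 2.17, 0.724, 2.36 and 1.41 CPM in the P7 libraries and at 0.477, 1.42, 1.75, 0.557 and 0.689 CPM in the adult ones. The groups overlapped, with P7 C and I inside the adult range, and the log2 fold change of 1.10 ± 0.48 (SE) was not called (adjusted p = 0.103 by edgeR's test). The remaining 6 genes were under the filter. Counts over the 5 P7 and the 5 adult libraries were 10 and 19 for Ifih1 (MDA5), 33 and 12 for Dhx58 (LGP2, a regulator of both), 15 and 6 for Zbp1 (a sensor of Z-form nucleic acid), 27 and 8 for Eif2ak2 (PKR, a kinase activated by double-stranded RNA), 17 and 12 for Ifi204 (a DNA sensor), and 14 and 6 for Sting1 (the adaptor of cGAS). At these counts no difference between the ages was tested, and in single libraries most of these genes were at or under the 3-count limit.

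Among the other effectors, Rsad2 rose and Ifi27 and Samd9l fell. Rsad2 encodes viperin, an enzyme that makes a chain-terminating nucleotide. It stood at 37.6, 38.2, 34.0, 13.9 and 14.5 CPM in the P7 libraries and at 7.30, 10.6, 6.58, 3.47 and 9.18 CPM in the adult ones. P7 A, B and C formed a higher level than P7 E and I, and all 5 were above every adult. Rsad2 rose by 1.90 ± 0.35 on the log2 scale (SE, adjusted p = 0.00132 by edgeR's quasi-likelihood test), 3.72-fold, with its call kept in all 23 settings.

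Samd9l, which encodes a growth-restricting antiviral protein, stood at 7.32, 6.82, 5.39, 6.16 and 9.13 CPM in the P7 libraries and at 13.7, 16.4, 14.5, 10.7 and 9.52 CPM in the adult ones. The groups did not overlap, with adult H only just above P7 I. Samd9l fell by 0.90 ± 0.22 on the log2 scale (SE, adjusted p = 0.00680 by the same test) and also kept its call in all 23 settings. Ifi27, which encodes a mitochondrial protein induced by interferon alpha, stood at 14.0, 11.99, 14.4, 12.7 and 13.7 CPM in the P7 libraries and at 14.5, 21.4, 32.6, 18.1 and 18.9 CPM in the adult ones. The P7 libraries lay within a narrow band that adult A nearly touched, and adult C was the highest. Ifi27 fell by 0.66 ± 0.21 (log2, SE, adjusted p = 0.0304 by edgeR's test). Without any 1 of P7 B, P7 E and adult C it was -0.66 to -0.46 and lost its call (adjusted p = 0.0575 to 0.0836), and with scaling by library size only it was -0.61 and was not called (adjusted p = 0.0585).

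The 6 other tested effectors were not called. Isg20, which encodes an exonuclease of single-stranded RNA, was abundant at 160 to 226 CPM in P7 libraries and 171 to 240 CPM in the adult ones, with a log2 ratio of P7 to adult of -0.17 ± 0.15 (SE, adjusted p = 0.422 by edgeR's test). With the GC trend removed it was -0.46 and called (adjusted p = 0.0388). Bst2 (tetherin, which holds budding virus on the cell) averaged 2.47 ± 0.754 CPM in P7 libraries and 1.78 ± 0.821 CPM in adult libraries (SD, n = 5 each), with adult H at 3.21 CPM and a log2 ratio of P7 to adult of 0.47 ± 0.34 (SE, adjusted p = 0.330 by edgeR's test). Ifi35 averaged 1.46 CPM and 1.68 CPM, with a log2 fold change of -0.20 (adjusted p = 0.681). Xaf1, Trim30a and Parp9 lay under 1 CPM on average at both ages, with log2 fold changes of -0.14, -0.69 and -0.34 (adjusted p = 0.849, 0.458 and 0.630). Parp14 (16 counts over all libraries), Rtp4 (25) and Ifi44 (6) were under the filter, and those of Ifi44 were all from adult libraries.

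Levels were compared between genes only per kilobase of exon. Ifitm3 led at both ages, at 578 CPM per kb at P7 and 240 in adults, followed by Igtp at 197 and 206, Isg20 at 101 and 113, and Ifit2 at 47.4 and 70.6 CPM per kb. Ifitm2 came next at P7 at 36.6, ahead of Mavs at 25.9, and these stood at 23.4 and 12.9 CPM per kb in adults, where Ifi47 (17.0) and Ifi27 (14.4) were above Mavs. The 45 genes together took up 0.142 ± 0.00835% of counts in P7 libraries and 0.123 ± 0.0197% in adult ones (SD, n = 5 each). No single library held the whole set high or low: the median deviation of the tested genes from their own age's mean ran from -0.13 to 0.07 on the log2 scale over the P7 libraries and from -0.11 to 0.08 over the adult ones.

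**Figure D3:**
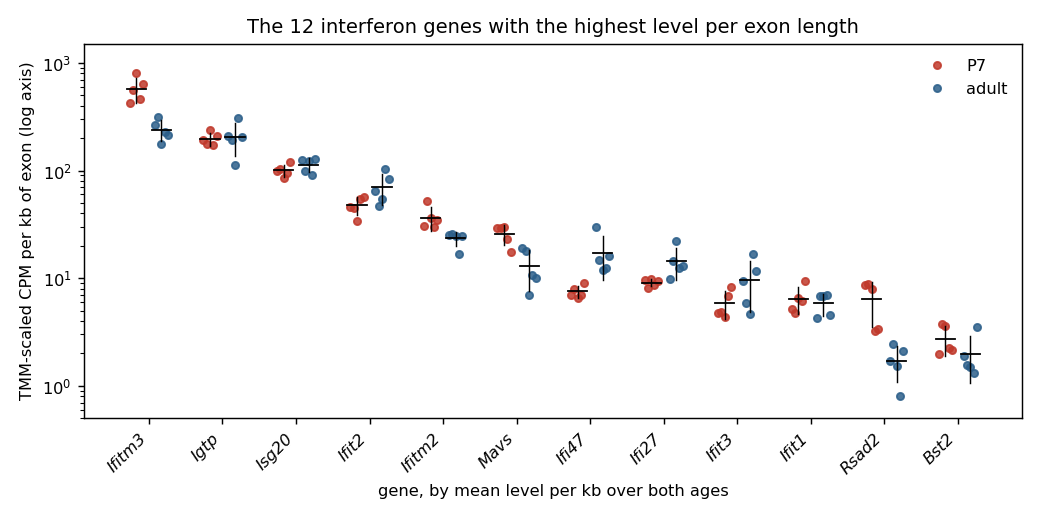
Level per kilobase of exon in each library, on a log axis with the mean and 1 SD, of the 12 interferon and sensor genes highest on this scale, P7 in red and adult in blue. Ifitm3, Igtp, Isg20 and Ifit2 stand above the rest at both ages.

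A longer list of 201 further pathway genes placed these values in context. It covers the ligands, the receptors with their JAK-STAT relays, further sensors, and further induced genes. Of these, 94 passed the filter, 17 were higher and 11 lower in edgeR's quasi-likelihood test, 29.8% in all beside the 27.7% over all genes, and their median log2 fold change was 0.09. Without P7 E, 11 were called higher, and 22.2% of all tested genes were called in either direction. Interferons themselves were close to undetected. Of 21 ligand genes 0 passed the filter, 18 had 0 counts in every library, and Ifnb1, Ifne and Ifng had 3, 10 and 2 counts over the 10 libraries, all from adults, and are named because their counts were the exceptions.

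Of the 26 receptor and JAK-STAT genes, 19 were tested, 4 were higher and 2 lower. The called share of the class was 31.6%, near the 27.7% over all genes tested. Irf3, which encodes the factor that MAVS and STING activate to switch on interferon beta, stood at 10.98, 12.4, 9.17, 9.68 and 10.7 CPM in the P7 libraries and at 1.29, 2.28, 1.51, 2.06 and 3.21 CPM in the adult ones. The ages were far apart, and Irf3 rose by 2.36 ± 0.26 on the log2 scale (SE, adjusted p = 2.76e-05 by edgeR's test). Ifnar1, which encodes a chain of the type I interferon receptor, stood at 6.24, 5.37, 5.39, 8.003 and 8.40 CPM in the P7 libraries and at 9.45, 9.88, 11.7, 11.3 and 15.8 CPM in the adult ones. All P7 libraries were below all adult libraries, and Ifnar1 fell by 0.80 ± 0.22 (log2, SE, adjusted p = 0.0139). Its partner chain Ifnar2 stood at a log2 ratio of P7 to adult of 0.50 ± 0.33 (SE, adjusted p = 0.288) and was not called. Il10rb, a chain of the interferon lambda receptor, fell by 0.97, and the phosphatase genes Ptpn6 and Ptpn11 rose by 1.26 and 0.57. Ptpn6 lost its call without P7 E, at 0.99 (adjusted p = 0.0545).

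Ifngr2, a chain of the interferon gamma receptor, was higher by 1.08 ± 0.37 on the log2 scale (SE, adjusted p = 0.043 by edgeR's test). That call was lost without any 1 of P7 A, C, E and I and adult A, B, C and G, at 0.93 to 1.08 (adjusted p = 0.0603 to 0.0993). Jak1, the kinase shared by these receptors, was abundant at 739 to 1125 CPM in P7 libraries and 966 to 1419 CPM in the adult ones. Its log2 fold change of -0.41 ± 0.15 (SE) was not called (adjusted p = 0.0560), though it passed without P7 C, adult G or adult H at -0.50 to -0.47 (adjusted p = 0.0266 to 0.0481). It passed as well with RLE scaling and in DESeq2, both at -0.44, and in limma-voom at -0.42 (adjusted p = 0.0438, 0.0464 and 0.0488). Irf8 and Tyk2 had log2 fold changes of 0.82 and 0.40 and were not called by edgeR's test (adjusted p = 0.0735 and 0.494). Irf8 passed without adult G, at 1.02 (adjusted p = 0.0342), and in limma-voom, at 0.90 (adjusted p = 0.0498). Ifngr1 was under the filter, with 93 counts.

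Other genes of nucleic acid sensing were called in both directions, with 5 higher and 5 lower among 29 tested. This made 34.5% called, beside 27.7% over all genes tested. Tarbp2, which encodes a partner of Dicer that also binds PKR, stood at 40.0 to 64.9 CPM in P7 libraries and 8.53 to 14.5 CPM in the adult ones, a rise of 2.20 ± 0.21 (log2, SE, adjusted p = 8.83e-06 by edgeR's test). Hmgb2, which encodes a chromatin protein that also binds immunogenic nucleic acid, rose by 1.83, and Zc3hav1, which encodes the antiviral protein ZAP, by 1.16. Tlr13, the endosomal receptor for bacterial ribosomal RNA, was listed at 0, 0, 0.161, 0.280 and 0.274 CPM in the P7 libraries and at 3.82, 3.48, 3.51, 2.44 and 0.631 CPM in the adult ones. The groups did not overlap and Tlr13 fell by 4.21 ± 0.70 on the log2 scale (SE, adjusted p = 0.000585 by the same test), a value that rests on a P7 level of few counts. The endosomal receptor genes Tlr7 and Tlr9, the DNA sensor gene Cgas and the RNA editing enzyme gene Adar were under the filter, with 5, 0, 5 and 60 counts over all libraries. Ywhae, which encodes a 14-3-3 protein that escorts RIG-I, fell by 0.54 and was not called with the GC trend removed, at -0.41 (adjusted p = 0.0520).

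Among 46 further induced genes tested, 8 were higher and 4 lower, 26.1% in all beside 27.7% over all genes tested. Ube2l6, which encodes the enzyme that conjugates ISG15, stood at 56.4, 61.8, 77.4, 45.4 and 37.7 CPM in the P7 libraries and at 30.0, 22.4, 17.5, 16.3 and 20.6 CPM in the adult ones. It rose by 1.38 ± 0.22 on the log2 scale (SE, adjusted p = 0.000449 by edgeR's test), with no overlap and in the same direction as Isg15. Psme1, which encodes a proteasome activator subunit, rose by 0.79. Casp4, which encodes the receptor of cytosolic lipopolysaccharide, fell by 2.52, Tdrd7 by 1.45 and Ifrd1 by 1.17. Tap1, the peptide transporter gene, and Ly6e, an antiviral surface protein gene, had log2 fold changes of 0.09 ± 0.65 and 0.12 ± 0.35 (SE), and neither was called. Ifi27l2a, a relative of Ifi27, had one of -0.54 (adjusted p = 0.583 by edgeR's test). Psmb8, an immunoproteasome subunit gene, had a log2 fold change of 0.84 (adjusted p = 0.0978) and was not called, except without P7 B, at 1.03 (adjusted p = 0.0389).

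**Figure D4:**
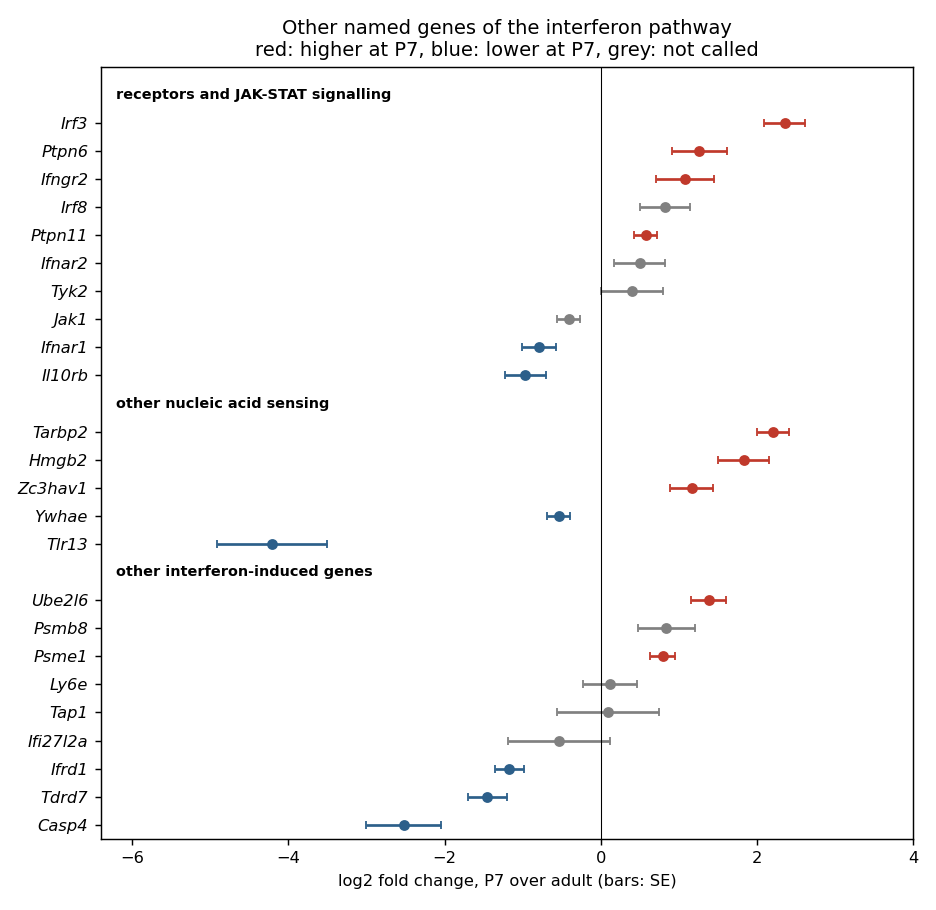
Log2 fold change of P7 over adult, with standard errors, for the 24 named pathway genes outside the 45-gene set, arranged by class, with red for genes higher at P7, blue for lower and grey for not called. Irf3 and Tarbp2 lie above 2, Tlr13 lies near -4.2, and each class holds genes called in both directions.

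Base composition varied with the fold changes over the whole table and in the interferon set alike. The rank correlation of exon GC content with log2 fold change was 0.27 across the 8028 tested genes with a value, and 0.29 across the 27 genes of the set, which are not independent replicates. Median GC content was 51.8% for the 7 interferon genes called higher and 47.6% for the 4 called lower, beside 52.4% and 45.7% for all genes called higher and lower. With this trend removed, Ifitm2 and Isg15 were not called and the other 9 kept their calls.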

How the data were processed

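RNA-seq of mouse platelets was available as 10 libraries, 5 at P7 and 5 adult. Per the labels' protocols, Trizol RNA was pre-amplified with SMARTer chemistry for low input, made into Nextera XT libraries and read single-end at 75 nt. For each gene symbol the authors deposited a raw count of reads, with no sign of normalization in the values. The submitters' processing notes name fastp 0.23.1, STAR 2.7.9a, Subread 2.0.1, featureCounts and Salmon 1.5.2, with no role. Neither the genome build nor the strand setting is stated in the sources used here. Reads of overlapping genes on opposite strands cannot be told apart. Amplification without molecular identifiers means that limits from counts cover counting error only.

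The 45 genes, the pathway and marker lists and the tests were chosen with earlier results of these data known. All 53819 symbols entered edgeR's filterByExpr (minimum count 10, minimum total 15), which kept 8198. These were scaled by TMM and fitted with the quasi-likelihood F test (robust option) (R 4.3.3, edgeR 4.0.16, limma 3.58.1), age being the single term, with Benjamini-Hochberg adjustment over all 8198. SE refers to the log2 fold change. The procedure was tested on simulated data. Exon length, GC content and overlaps came from the GENCODE annotation of GRCm38 by symbol, and promoters from RefSeq. Named genes were all 45, the up to 5 called genes of smallest p in each pathway class, and a fixed set of receptor, kinase, antigen processing and induced genes, of which 1 is not reported here. Library correlations on log2(CPM + 0.5) were 0.961 to 0.979 within an age and 0.926 to 0.951 between ages, and 0 pairs of libraries were identical. Alternatives, 23 in all, were other scalings, tools (DESeq2 1.42.0, limma-voom), filters and thresholds, the letters A to C as a block, and each library left out. Removal of the GC trend was added after seeing the data. The listed symbols Wars1, Ifi16 and Pyhin1 matched nothing and were not used here.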

Additional observations from a re-analysis of the deposited data

Results flagged for a closer look

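Libraries that stood far from the other 4 of their age were looked for among the interferon and pathway genes named above with Dixon's test at the 95% level. It marked 18 of 135 groups, and chance alone marks about 1 in 20. Many of the marked groups rest on few counts.

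Among the marked values, Ifi47 stood at 74.3 CPM in adult A, above the other adults. Ifitm2 stood at 11.1 CPM in adult G, below the other adults. Bst2 stood at 3.21 CPM in adult H and Isg15 at 2.73 CPM in P7 C, each above the others of its age. Gbp2, which was under the filter, stood at 0.724 CPM in P7 C and at 2.18 CPM in adult H. Psmb8 stood at 1.19 CPM in P7 B, the lowest of the P7 libraries.

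The remaining marked values were each under 1 CPM and above the other libraries of their age. At P7 these were Oas1a at 0.840 CPM in P7 E, Ifih1 at 0.402 CPM in P7 C, Oasl1 at 0.0402 CPM in P7 C and Parp14 at 0.228 CPM in P7 I. In adults they were Dhx58 at 0.430 CPM and Oasl1 at 0.0860 CPM in adult B, and Eif2ak2 at 0.341 CPM, Ifi44 at 0.244 CPM and Parp14 at 0.390 CPM in adult C. Mx1 stood at 0.129 CPM in adult G and Sting1 at 0.287 CPM in adult H.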

How the results depend on the processing

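Of the 11 called interferon genes, 4 (Ifitm3, Ifi47, Rsad2 and Samd9l) kept their call in all 23 settings, 7 lost it in at least 1, and 0 changed sign. At a threshold of 0.01, 3 were called higher and 2 lower, and of the further pathway genes 8 and 4. With each library left out in turn, 4 to 7 interferon genes were called higher and 2 to 5 lower, and 11 to 19 and 9 to 14 pathway genes. The letters A, B and C occur at both ages, but same-letter libraries did not deviate together (r = -0.10, 0.02 and -0.04), and 1 of 3 P7 libraries correlated best with its own letter. With these letters as a replicate block, 2 interferon genes were called higher and 2 lower, 9 pathway genes were higher, and 1416 genes were called in all, whereas the same 6 libraries without the block gave 3 and 2, and 1886. Ifitm1 lost its call with the block, at 1.78 (adjusted p = 0.0885), and kept it in the same libraries without. Mavs lost it in both, at 1.10 and 0.97 (adjusted p = 0.0506 and 0.0592). Sign changes were seen for genes that were not called. In the replicate block fit and in the same libraries without it, log2 fold changes were -0.12 and -0.14 for Ifit1, 0.11 and 0.077 for Mx2, 0.24 and 0.20 for Igtp, -0.37 and -0.14 for Irf9, and 0.091 and 0.18 for Xaf1. Irf9 was at -0.072 in limma-voom and Igtp at 0.0018 with library size only, and with the GC trend removed Ly6e was at -0.13 and Tap1 at -0.15. With single libraries left out, log2 fold changes ran from -0.052 to 0.22 for Ifit1, from -0.22 to 0.10 for Igtp, from -0.16 to 0.34 for Irf9, from -0.51 to 0.014 for Xaf1, from -0.10 to 0.38 for Ly6e and from -0.21 to 0.48 for Tap1. With no filter on low counts the median over all genes moved by 0.19. The cause of these changes was not tested. At this depth a gene under about 1 CPM rests on few counts, so an absent call there is no sign of equal levels.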
